A study of Mus musculus with 3 samples.

Results

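The translation initiation and elongation factors are the proteins that bring the small ribosomal subunit to an mRNA, select its start codon and move the assembled ribosome along it. Their genes were taken by name from the count files, as all symbols beginning with Eif1 to Eif6, Eef1 or Eef2, with the kinases of eIF2 (Eif2ak genes) left out. This gave 60 genes of the 23238 symbols in the files. The cells were mouse myoblasts of the established line c2c12, which had been kept in myogenic induction medium (DMEM with horse serum) for 2 days. They were cultured on tissue culture plates (TCP), on hydrogels of methacrylated gelatin (GelMA), or on hydrogels that combine 15% GelMA with 1% poly(sodium 4-styrenesulfonate) (PSS), a polymer with sulfonate groups that mimics heparin (GelMA-PSS). The study asked how such a heparin-mimicking surface acts on myogenic differentiation, and 1 library was sequenced for each substrate.

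In initiation, eIF2 carries the initiator tRNA as a complex with GTP, eIF2B recharges eIF2, and eIF1 and eIF1A hold the scanning ribosome open until a start codon is found. The large complex eIF3 keeps the initiation factors on the small subunit, and eIF4E, eIF4G and eIF4A form the complex that binds the cap of the mRNA. In elongation, eEF1A delivers the aminoacyl-tRNA, the eEF1B subunits reload eEF1A with GTP, and eEF2 moves the ribosome to the next codon. The kinase mTOR controls part of this machinery in muscle, through the eIF4E-binding proteins and through mRNAs that begin with a 5′ terminal oligopyrimidine (5′ TOP) tract, which include mRNAs of ribosomal proteins and of most elongation factors. RNA levels do not show the activity of these proteins, much of which is set by phosphorylation.

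The libraries held 119799095 (TCP), 87071144 (GelMA) and 192171443 (GelMA-PSS) counts. Levels are given as CPM (each gene's counts relative to the library total) after scaling with TMM factors, and differences as differences in log2(CPM + 1). As every group is a lone library, the differences could not be set against a spread between cultures, and they are given without p-values. Each level with a 95% interval carries a Wilson interval, which covers counting error only. In bulk RNA, fewer cells of a type and less RNA per cell cannot be told apart. All 10 muscle genes looked up as markers, among them Myod1, Myog, Des and Ckm, were expressed, and on GelMA-PSS 3 of them were above both controls, 3 were below both and 4 lay between them, with a median log2 difference of -0.05 against the mean of the controls. Their summed CPM was 28062 on TCP, 20857 on GelMA and 18034 on GelMA-PSS, in which Myh3, an embryonic myosin heavy chain, took 10182, 6355 and 3037. Of 6 genes that mark blood, endothelial and epithelial cells, 5 were below a CPM of 1 in all 3 libraries, and Cd68 lay between 1.37 and 1.71. The part of the differentiation state in the differences below was not tested.

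Among the 60 genes, 57 reached a CPM of 1 in at least 1 library. Of these 57 genes, 42 were above both controls on GelMA-PSS, 11 were below both and 4 lay between them. Over all 13169 genes that reached the same level, 45.3% were above both controls and 39.3% below both. As a median, the log2 difference of the factors was 0.36 against GelMA and 0.33 against TCP, and the medians over all genes were 0.03 and 0.04. The 60 genes together took 2.21% of all counts on TCP, 2.38% on GelMA and 2.69% on GelMA-PSS. With the threshold of 2-fold against both controls, 0 factors were called higher and 0 lower, beside 1.37% of all genes higher and 1.16% lower. With 1.5-fold, 7 factors were higher (Eef1b2, Eif1ax, Eif3e, Eif3h, Eif3i, Eif3k and Eif3m) and Eif4g3 was the 1 gene lower, beside a background of 8.08% and 7.18% of all genes. Against the mean of the controls, the factors ran from -0.82 for Eif4g3 to 0.79 for Eef1b2. Their quartiles were 0.05 and 0.47, and those of all genes were -0.30 and 0.34.

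**Figure D1:**
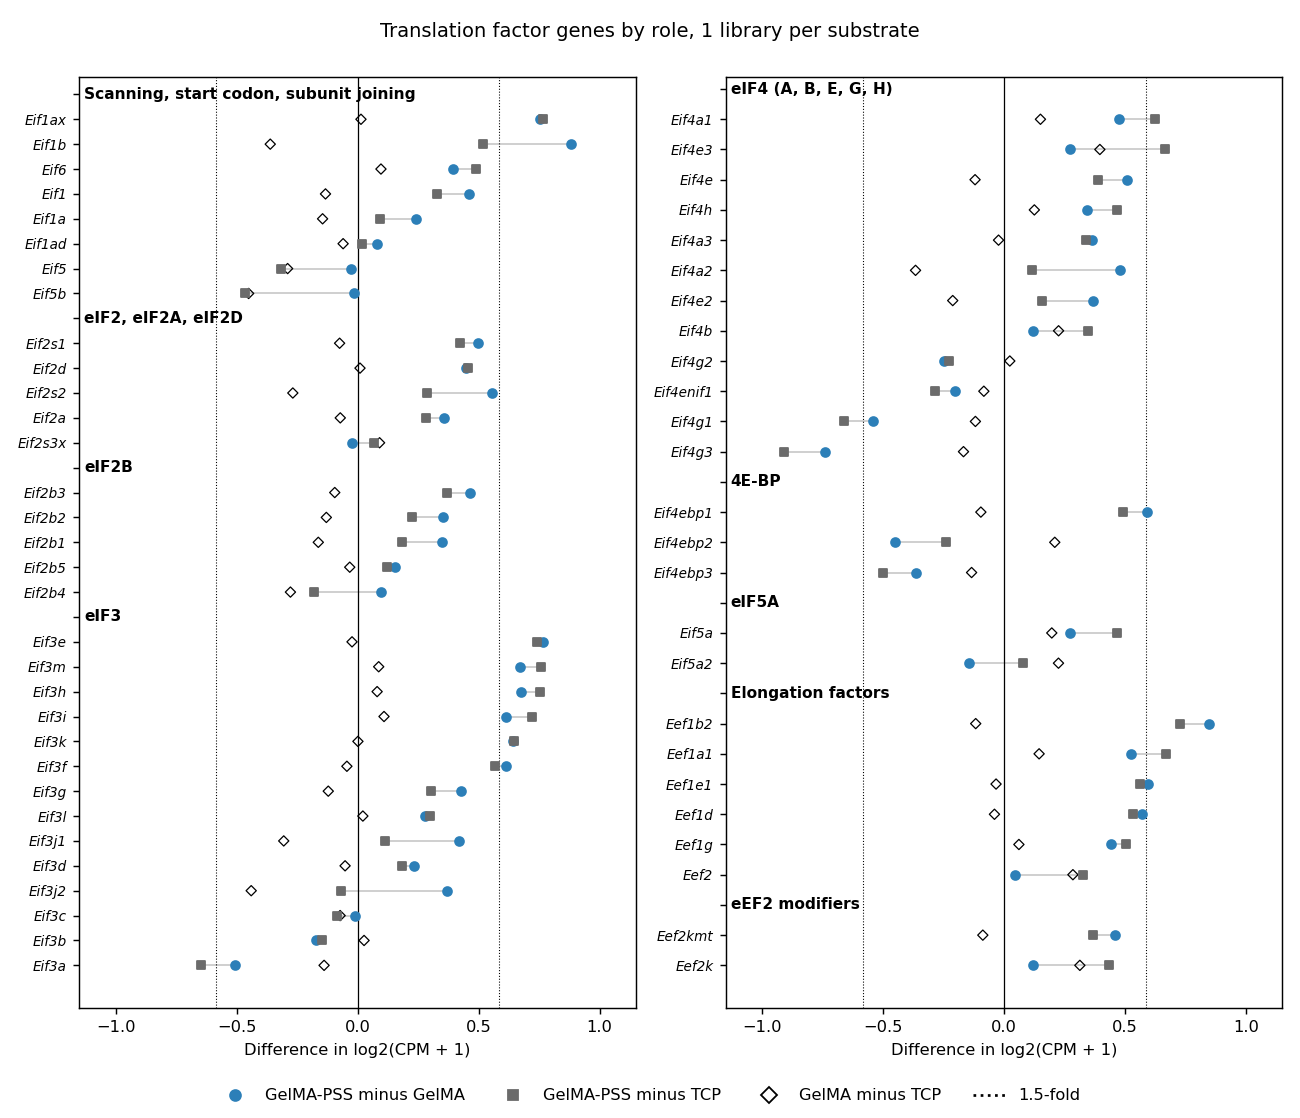
Difference in log2(CPM + 1) for each of the 57 expressed factor genes, grouped by role, with GelMA-PSS set against GelMA (blue circles) and against TCP (grey squares), and GelMA against TCP (open diamonds); dotted lines mark 1.5-fold. The filled symbols of the elongation factors lie to the right of 0, and those of Eif4g3, Eif4g1 and Eif3a lie farthest to the left.

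The genes grouped here as elongation factors, with Eef1e1 included by its name, shared a direction. All 6 expressed genes were higher on GelMA-PSS than on both controls, beside 45.3% of all genes. Relative to the mean of the controls their log2 differences ran from 0.19 to 0.79 around a median of 0.56. Eef1a1, which encodes the form of eEF1A found in most cells, had a CPM of 6378 (95% interval from 6363 to 6392) on TCP, 7049 (from 7031 to 7066) on GelMA and 10138 (from 10124 to 10153) on GelMA-PSS. It took 0.648%, 0.736% and 0.956% of all counts in these libraries and ranked 4th, 2nd and 3rd among all genes. The 2 controls were close to each other, and the level on GelMA-PSS was 1.44 times that on GelMA and 1.59 times that on TCP. Eef1a1 lies on chromosome 9 of GRCm38 from 78478449 to 78489151.

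Eef1b2, the subunit of eEF1B that exchanges the nucleotide on eEF1A, had the largest increase of all factors over the mean of the controls. Its CPM was 735 on TCP, 678 on GelMA and 1219 on GelMA-PSS, and its log2 difference was 0.85 against GelMA and 0.73 against TCP. Eef1d, which encodes another exchange subunit, had 251, 244 and 363 in the same order. Eef1g, the subunit that anchors the complex, had 402, 420 and 570. For each of these genes the GelMA-PSS library stood above a pair of controls that differed by at most 0.12 in log2. Eef1e1 encodes a small protein of the multi-tRNA synthetase complex and was far less abundant, with a CPM of 22.4, 21.8 and 33.4.

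Eef2 departed from this pattern. Its CPM was 3373 on TCP, 4108 on GelMA and 4232 on GelMA-PSS, so that GelMA-PSS and GelMA differed by 0.04 in log2 and most of the difference lay between TCP and the gelatin substrates. Eef2k encodes the kinase that inactivates eEF2, and its levels followed the same order, with 25.7, 32.2 and 35.1. The log2 difference of Eef2k between GelMA and TCP, 0.31, was larger than that between GelMA-PSS and GelMA, 0.12. Eef2kmt encodes the enzyme that methylates eEF2 and was at 27.2, 25.5 and 35.4.

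Eef1a2 encodes the form of eEF1A that replaces eEF1A1 in mature muscle fibres and neurons. It was close to absent in these cells, with 4 counts on TCP, 1 on GelMA and 7 on GelMA-PSS. Since 3 counts was taken as the floor, which is a CPM of 0.0246, 0.0330 and 0.0166 in these libraries, no fold was taken between them. The muscle markers above were expressed in the same libraries, Acta1 at 5060 to 6192. Of the other genes below the limit, Eif2s3y, the copy of the eIF2 gamma subunit on chromosome Y, had 0 counts in all 3 libraries, which allows a CPM of up to the same floors. Eif4e1b, an oocyte form of eIF4E, had 9, 6 and 0 counts.

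**Figure D2:**
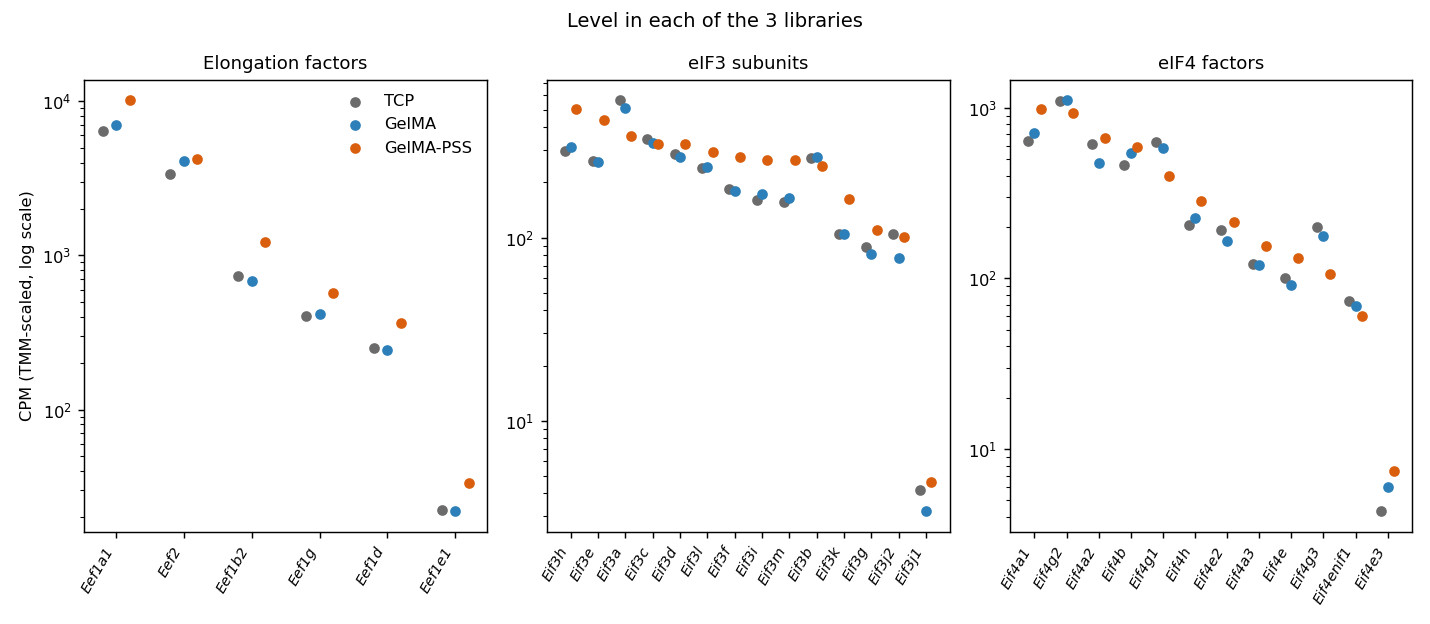
CPM in the TCP (grey), GelMA (blue) and GelMA-PSS (orange) libraries on a log axis for the expressed elongation factors, eIF3 subunits and eIF4 factors, 1 point per library. Eef1a1 reaches 10138 on GelMA-PSS, and the orange points of Eif3a, Eif4g1 and Eif4g3 lie below those of both controls.

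The eIF3 complex is built from a core of subunits with PCI and MPN domains (a, c, e, f, h, k, l and m), to which the b, d, g, i and j subunits attach. Its 14 genes did not move together. In GelMA-PSS, 10 were higher than on both controls, 3 were lower and 1 lay between them, beside 45.3% of all genes higher and 39.3% lower. After the correction for transcript length and GC content described below, 9 were higher and 4 lower, beside 40.2% and 40.7%. The median of the 14 genes against the mean of the controls went from 0.33 to 0.10, with Eif3i at 0.23 and Eif3k at 0.15. The levels that follow are uncorrected. Eif3e had a CPM of 263 on TCP, 258 on GelMA and 440 on GelMA-PSS. For Eif3h, the MPN subunit that pairs with eIF3f, the values were 297, 314 and 502. Eif3m had 156, 165 and 264, Eif3k had 104, 104 and 163, and Eif3i, a subunit of the attached module, had 161, 174 and 266. In each of these genes the controls differed by at most 0.11 in log2 and GelMA-PSS lay above both. Eif3f was just below the 1.5-fold threshold against TCP, with a log2 difference of 0.57, and at 0.61 against GelMA.

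By contrast, Eif3a, which encodes the largest subunit and the scaffold of the core, was lower on GelMA-PSS. Its CPM was 562 (95% interval from 558 to 566) on TCP, 510 (from 506 to 515) on GelMA and 359 (from 356 to 361) on GelMA-PSS, and its log2 difference was -0.51 against GelMA and -0.65 against TCP. Eif3b, the scaffold of the attached module, was at 272, 277 and 245, and Eif3c, which pairs with eIF3a in the core, was at 344, 327 and 325. The ratio of Eif3e to Eif3a per transcript length was 1.59 on TCP and 1.72 on GelMA, and 4.18 on GelMA-PSS. Values per length do not include the correction for transcript length and GC content described below. With it, Eif3e came to 0.28 and Eif3a to -0.42 against the mean of the controls, from 0.75 and -0.58. Over the 12 subunits other than the j genes, the CPM per kilobase of transcript spanned 3.12-fold on TCP, 3.40-fold on GelMA and 5.54-fold on GelMA-PSS. Eif3h had the highest value per kilobase in all 3 libraries, and the lowest was that of Eif3f on the controls and of Eif3a on GelMA-PSS. Eif3j1 and Eif3j2 are nearly identical copies, and of all stretches of read length in the Eif3j2 transcript, 83.8% also occur in Eif3j1, so that their counts cannot be separated with certainty.

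Among the factors at the cap, the scaffolds were lower and the helicases higher before the correction for transcript length and GC content described below. With the correction, the scaffold gene Eif4g2 changed sign. Eif4g1, which encodes the main scaffold of the cap complex, had a CPM of 629 on TCP, 579 on GelMA and 397 on GelMA-PSS. Eif4g3, a second scaffold with the same domains, had 200 (95% interval from 197 to 202), 178 (from 175 to 181) and 106 (from 105 to 108). It was the lowest of all factors relative to the controls, at 0.596 times its level on GelMA and 0.530 times that on TCP. Eif4g2, which encodes a related protein that lacks the site for eIF4E, was at 1087, 1105 and 929, a smaller difference of -0.25 and -0.23 in log2. Eif4enif1, the carrier that takes eIF4E into the nucleus, was also lower than on both controls, at 73.3, 69.1 and 59.9.

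The helicase gene Eif4a1 was higher on GelMA-PSS, with a CPM of 639 on TCP, 709 on GelMA and 985 on GelMA-PSS. Its paralog Eif4a2 differed mainly between the controls, with 610, 473 and 660, and lay 0.11 above TCP in log2. Eif4a3, the helicase of the exon junction complex, had 122, 120 and 154. After the correction, Eif4a3 came to 0.05 against the mean of the controls. Eif4a2 then lay between the controls, at 0.22 against GelMA and -0.09 against TCP. The ratio of Eif4a1 to Eif4a2 per transcript length was 1.60 on TCP, 2.29 on GelMA and 2.28 on GelMA-PSS. The ratio of Eif4a1 to Eif4g1, which was 3.23 on TCP and 3.89 on GelMA, reached 7.88 on GelMA-PSS. This ratio does not include the correction, which took Eif4a1 from 0.55 to 0.25 and Eif4g1 from -0.60 to -0.26. Eif4e, the cap-binding protein itself, was at 100, 92.1 and 131, and Eif4e2, a cap-binding protein that represses translation, was at 192, 166 and 215. Eif4h and Eif4b, which stimulate the helicase, had log2 differences of 0.40 and 0.23 against the mean of the controls.

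The 3 eIF4E-binding proteins, which hold eIF4E away from eIF4G until mTOR phosphorylates them, did not share a direction. Eif4ebp1 had a CPM of 117 on TCP, 109 on GelMA and 165 on GelMA-PSS. Eif4ebp2 had 34.4, 39.9 and 28.9, and Eif4ebp3 had 4.66 (95% interval from 4.30 to 5.06), 4.16 (from 3.76 to 4.60) and 3.00 (from 2.76 to 3.27). Eif4ebp1 was thus above both controls and the other 2 genes were below them. After the correction for transcript length and GC content described below, Eif4ebp2 lay between the controls, at -0.07 against GelMA and 0.04 against TCP, while the other 2 kept their directions. Per transcript length, the ratio of Eif4ebp1 to Eif4ebp2 was 9.86 on TCP, 7.94 on GelMA and 16.5 on GelMA-PSS. The ratio of Eif4e to Eif4ebp1 was 0.342, 0.337 and 0.319. For Eif4ebp3, 62.7% of the stretches of read length in its transcript are also part of a transcript of an overlapping gene model, AC115631.1.

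Of the factors of scanning and subunit joining, Eif1ax stood out. It encodes eIF1A and lies on chromosome X from 159372178 to 159389928. Its CPM was 103 (95% interval from 101.1 to 104.7) on TCP, 104 (from 102 to 106) on GelMA and 176 (from 174 to 178) on GelMA-PSS, a log2 difference of 0.75 and 0.77 against controls that differed by 0.01. Eif1a, its paralog on chromosome 18, was at 83.0, 75.0 and 88.7. Eif1b, a paralog of the start codon factor Eif1, had 28.0, 21.5 and 40.5. Before the correction for transcript length and GC content described below, it had the largest log2 difference of any factor against GelMA, 0.88, and 0.52 against TCP. The correction took Eif1b to 0.39 and 0.10, and Eif1ax was then the largest against GelMA, at 0.88. Eif1 itself was at 528, 481 and 663. Eif5b, the GTPase that joins the ribosomal subunits, and Eif5, which triggers GTP hydrolysis on eIF2, were at about the level of GelMA, with log2 differences of -0.01 and -0.03, and lay below TCP by -0.46 and -0.32. Eif6, which keeps free large subunits from joining, was at 92.0, 98.4 and 130. Of the 8 genes of this group, 6 were higher than on both controls and 2 lower. The correction for length and GC content left 3 higher and 2 lower, with Eif1 and Eif1a at -0.01 and -0.04 against the mean of the controls.

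The alpha and beta subunits of eIF2 were higher on GelMA-PSS, Eif2s1 at 99.3 on TCP, 94.2 on GelMA and 133 on GelMA-PSS, and Eif2s2 at 269, 223 and 329. The gamma subunit Eif2s3x was at 283, 301 and 297, between the controls. Eif2a and Eif2d encode factors that can bring the initiator tRNA without eIF2 and had log2 differences of 0.32 and 0.45 against the mean of the controls. Of the 5 subunits of eIF2B, 4 were higher than on both controls, with Eif2b3 at 0.42, and Eif2b4 lay between them, while the correction for length and GC content left 2 higher and 1 lower. Eif5a carries the modified lysine hypusine and helps the ribosome over difficult stretches such as prolines. It was at 522, 598 and 722, and its paralog Eif5a2 was rare, at 5.34, 6.40 and 5.69. After the correction, both genes lay between the controls.

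The differences followed transcript length, in the factors as in the transcriptome. Across the 57 factors, Spearman's rho between the log2 difference against the mean of the controls and the length of the chosen transcript was -0.54, and across the 13060 genes with a known length it was -0.61. Both describe genes of the same 3 libraries. Of the 9 factors with transcripts under 1500 bases, 8 were higher on GelMA-PSS than on both controls. Of the 27 from 1500 to below 3000 bases, 24 were higher, among them Eef1a1, Eef1b2, Eef1d, Eef1e1 and Eef1g. Of the 11 from 3000 to below 5000 bases, 7 were higher and 3 lower. Of the 10 with 5000 bases or more, 3 were higher and 6 lower. From the shortest group to the longest, the median log2 differences were 0.64, 0.40, 0.23 and -0.24. All genes of the same lengths had medians of 0.47, 0.19, -0.08 and -0.42. Eif4g3, Eif4g1 and Eif3a have transcripts of 8134, 5638 and 5125 bases, and Eif3k has 909. Whether length set these differences was not tested, since the substrates and the libraries cannot be told apart.

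**Figure D3:**
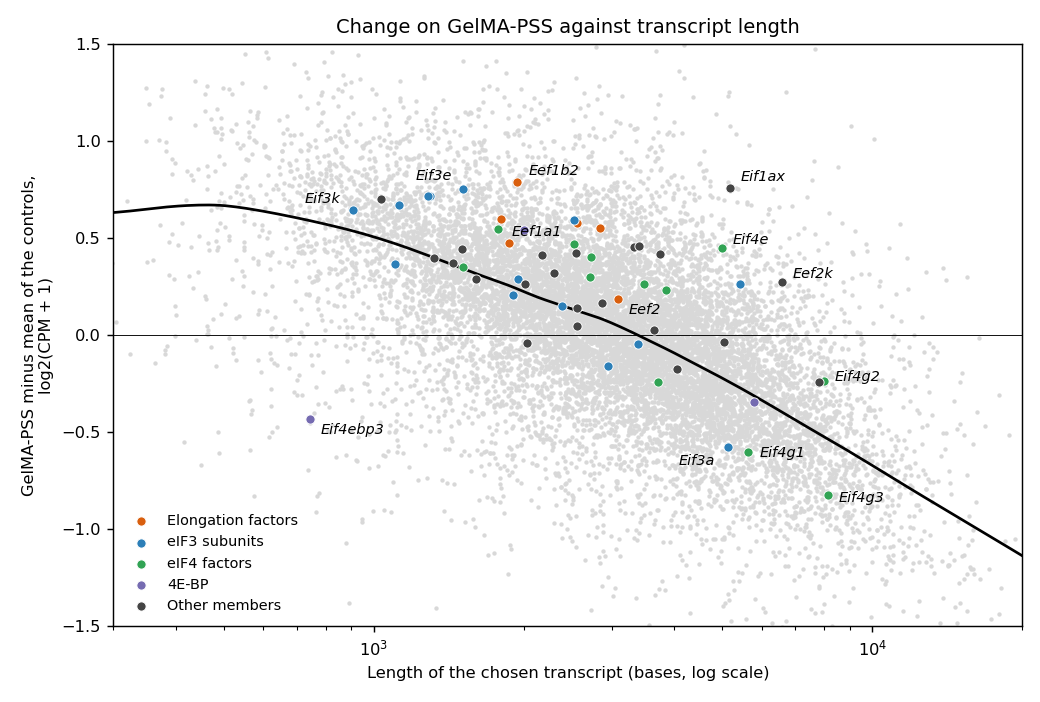
Difference in log2(CPM + 1) between GelMA-PSS and the mean of the controls against transcript length (log axis) for the factors (coloured by role) and all other expressed genes (grey), with a loess line through all genes; 216 genes lie outside the axes. Eif1ax and Eef2k lie above the line among genes of similar length, and Eif4ebp3 lies below it.

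A loess correction for transcript length and GC content was therefore applied to all genes. After it, 35 factors were higher on GelMA-PSS than on both controls, 11 were lower and 11 lay between them, beside 40.2% and 40.7% of all genes higher and lower. The median of the factors against the mean of the controls went from 0.32 to 0.19. All 6 elongation factors remained higher than on both controls, with a median of 0.33, a value of 0.29 for Eef1a1 and 0.50 for Eef1b2. The eIF3 core subunits kept their directions, with a median of 0.19 where it had been 0.62, and Eif3a remained the lowest of them at -0.42. Eif4g1 and Eif4g3 came to -0.26 and -0.28, while Eif4g2 changed sign to 0.19. Over 1.5-fold against both controls, Eif1ax was the 1 factor higher (2.71% of all genes) and Eif4ebp3 the 1 factor lower (3.4% of all genes). Their corrected log2 values were 0.87 and -0.99.

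The correction depends on which transcript stands for a gene. Eif4e has a chosen transcript of 4991 bases, and the median of its coding transcripts is 792.5 bases. Its corrected value of 0.55 became -0.17 with the median length. For Eef2k the value of 0.67 became 0.29, whereas for Eif1ax, with 5172 bases in both cases, it was 0.87 and 1.00. Of the elongation factors, Eef1b2 and Eef1d kept corrected values of 0.40 and 0.34.

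**Figure D4:**
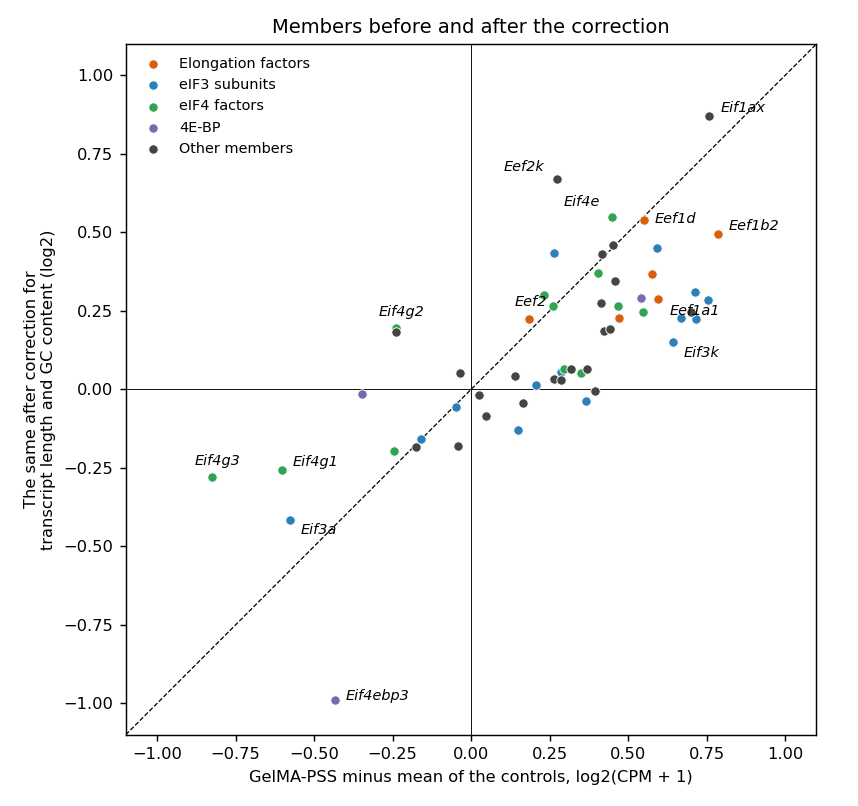
Difference between GelMA-PSS and the mean of the controls for the 57 factors before (x axis, log2(CPM + 1)) and after (y axis, log2) the correction for transcript length and GC content; the dashed line marks equal values. Eif1ax at 0.87 and Eif4ebp3 at -0.99 are the extremes after the correction, and the elongation factors stay above 0.

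Of the factors, 9 are known for mRNAs of the 5′ TOP class (Eef1a1, Eef1b2, Eef1d, Eef1g, Eef2, Eif3e, Eif3f, Eif3h and Eif4b). All 9 were higher on GelMA-PSS than on both controls, before and after the correction, with medians of 0.59 and 0.30. Over all genes, 45.3% were higher before the correction and 40.2% after it. Whether these 9 are all the factors of the class was not tested. The other 48 expressed factors had medians of 0.29 and 0.06, with 33 and 26 of them higher. The 75 cytosolic ribosomal protein genes, whose mRNAs belong to the same class, were all higher, with medians of 0.99 and 0.49. Of 5 further genes of this class, all were higher, among them Tpt1 with a CPM of 4752 on TCP, 5047 on GelMA and 10633 on GelMA-PSS. The list was drawn up with the ribosomal protein values already known, and it adds no independent evidence of a direction.

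The sequences around the annotated start of transcription show how far such a tract can be read from the annotation. They are printed for factors of the 5′ TOP class that have an entry, for Eif2s3x, which has a long tract and lay between the controls, and for Eif3a and Eif4g1, which were lower. Each covers 5 bases before and 25 bases after the start in RefSeq (GRCm38.p6), and capitals mark the longest run of a C followed by at least 4 bases that are C or T.
Eef1a1: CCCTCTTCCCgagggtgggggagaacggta
Eef1b2: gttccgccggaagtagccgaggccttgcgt
Eef2: cgggcgttgacgtcagcggtCTCTTCCgcc
Eif3f: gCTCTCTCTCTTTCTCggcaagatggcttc
Eif4b: tcggacgccgcgccaCCCCCTCgcgctgct
Eif2s3x: ttttCCTTTTCTCTCCgagcaagatggctg
Eif3a: gcggcggcgctgccgccgcgagggaatcac
Eif4g1: gctccgCCCTCTgcgccggtcacgtggggc

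The Eef1a1 window lies at chr9:78481700-78481729 on the minus strand, with a run of 10 bases across the annotated start. Whether this run is part of the Eef1a1 mRNA, and so its 5′ TOP tract, was not tested. Eif3f, at chr7:108934410-108934439 on the plus strand, has a run of 15 bases across the annotated start. In Eef2, at chr10:81176626-81176655 on the plus strand, the run begins 16 bases into the transcript as annotated, and in Eif4b, at chr15:102073768-102073797 on the plus strand, it begins at base 11. The window of Eef1b2, at chr1:63176826-63176855 on the plus strand, holds no such run, and its log2 difference was 0.79. Eif2s3x, at chrX:94212627-94212656 on the minus strand, has a run of 12 bases and a log2 difference of 0.02. Eif3a (chr19:60790669-60790698, minus strand) has none, and Eif4g1 (chr16:20672722-20672751, plus strand) has a run of 6.

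Such a run was about as frequent in the factors as in all genes. It was present in this window, on the strand of the gene, in 18 of 46 factors with an entry (39.1%), and in 38.5% of all 27024 genes with an entry. The median log2 difference was 0.25 in the 16 expressed factors with a run and 0.33 in the 28 without, and 0.10 and 0.07 after the correction. Among the ribosomal protein genes, 69.1% of 55 with an entry had the run. An annotated start can lie away from the start used in these cells, so that a marked run may not be part of the mRNA. A match is no evidence that a tract is functional.

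Other genes of translation, from lists drawn up by function, showed no common direction. For the counts below, 45.3% of all genes were higher than on both controls and 39.3% lower. After the correction these shares were 40.2% and 40.7%. All 8 genes of the enzymes that make hypusine on eIF5A and diphthamide on eEF2 (such as Dhps, Dohh and Dph3) were higher than on both controls, with a median log2 difference of 0.29, which became 0.10 with 5 higher and 3 lower after the correction. The kinases and phosphatase subunits that act on eIF2 had 0 of 6 higher and 4 lower, with a median of -0.17, and 2 higher and 0 lower after the correction. Of 8 regulators of the cap complex and its helicases, 6 were lower and 0 higher, and the correction left 6 lower and 1 higher. Larp1, which binds 5′ TOP mRNAs under the control of mTOR, had a CPM of 182 on TCP, 183 on GelMA and 112 on GelMA-PSS. Its log2 difference against the mean of the controls, -0.70, became -0.26 after the correction. Pdcd4, an inhibitor of eIF4A, had 53.3, 37.9 and 34.4, so that its largest step was between the controls. Of 8 release and recycling factors 4 were higher and 2 lower, and of 8 mitochondrial translation factors 5 were higher and 2 lower, with medians of 0.06 and 0.17, and the correction made these counts 1 higher and 5 lower, and 3 and 3. The poly(A)-binding protein gene Pabpc1 had 516, 597 and 667.

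Between the control substrates the factors differed less. Of the 57 factors, 22 were higher and 35 lower on GelMA than on TCP, where 48.3% and 51.7% of all genes were higher and lower, and the median log2 difference was -0.05. No factor passed 1.5-fold, beside 3.5% of all genes higher and 2.12% lower. The range ran from -0.45 for Eif5b to 0.40 for Eif4e3, a cap-binding paralog with a CPM of 4.31 on TCP, 5.99 on GelMA and 7.43 on GelMA-PSS. Against GelMA alone, 11 factors were higher on GelMA-PSS by over 1.5-fold and 1 was lower, where 11% and 10.8% of all genes were. Against TCP alone, 10 were higher and 3 lower, where 13.2% and 11.5% of all genes were.

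Some factor genes share sequence with pseudogenes, and it is not known how reads that match several places were counted. Of the stretches of read length in the chosen transcript, 60.8% in Eif4a1, 49.2% in Eef1g, 35.2% in Eif2s3x and 26.1% in Eef1a1 occur in a transcript of another gene. These shares do not measure an error, and how far the shared sequence affects the values of these genes was not tested. In 39 of the 60 genes the shared part was under 1%, among them Eef2, Eif1ax, Eif3a, Eif4g1 and Eif4g3.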

How the data were processed

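RNA was extracted from c2c12 cells on 3 substrates, and 1 library per substrate was sequenced. The labels name a SMARTER kit and the study's methods a strand-specific TruSeq kit with 101-base paired reads. The deposited files hold raw counts per gene symbol made by the authors. The submitters' processing notes list TopHat, edgeR and the builds mm10 and hg19 without roles, and the tool that counted reads is not given in the sources used here. Whether both reads of a pair were counted is not known, and the intervals are too narrow if they were. Of the 23282 lines, 35 symbols stood on several lines, none of them a factor, and these lines were summed.

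Here, counts were scaled with TMM (edgeR 4.0.16, R 4.3.3; factors 1.02, 1.04 and 0.943 for TCP, GelMA and GelMA-PSS) and expressed as CPM, with genes kept at a CPM of 1 in at least 1 library. Differences were taken on log2(CPM + 1), which understates those of low genes. A gene was called at 2-fold against both controls, with 1.5-fold as the alternative. The study names both folds, 2-fold in its methods, with a p-value on FPKM, and 1.5-fold in its results, and no p-value was used here. Ratios were corrected for transcript length and then GC content by loess (statsmodels 0.14.6, span 0.3) with GENCODE vM21 lengths (GRCm38), 1 transcript per gene by longest coding sequence. The procedure was tested on simulated data. Start windows came from RefSeq (GRCm38.p6), with an entry for 46 factors. Other alternatives were pseudocounts, size factors, library totals, no filter and the median transcript length, the last added after seeing the data. Full values are given for factors past 1.5-fold against both controls, the highest and lowest of each role and sets of paralogs, and other genes come from lists by function. Members and lists were chosen with earlier results of these data known.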

Additional observations from a re-analysis of the deposited data

How the results depend on the processing

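No paired analysis was possible because each substrate has 1 library, and no replicate could be left out for the same reason. Lowering the threshold from 2-fold to 1.5-fold against both controls moved the number of factors called from 0 to 7 higher and from 0 to 1 lower. The median log2 difference of the factors between GelMA-PSS and the mean of the controls, 0.32, was 0.19 with scaling by library totals alone, 0.19 after the correction for transcript length and GC content, and 0.13 with that correction by the median transcript length. With library totals alone the median of all genes moved from 0.03 to -0.08, 37 factors were higher than on both controls and 15 lower, and the share of 2-fold calls over all genes that were higher went from 54.1% to 27.1%. Eif1ad and Eif2s3x changed sign there. The corrections changed the sign of 9 and 10 factors, among them Eif4g2 and Eif5b, and the median length also turned Eif4e. Other pseudocounts and size factors changed no sign. The median between GelMA and TCP stayed between -0.06 and -0.01. The lowest count of an expressed factor was 290. Counting error left the direction of some factors open, as the interval of their uncorrected fold against a control included 1. Among those counted as higher, these were Eif1ad against TCP (from 0.975 to 1.053) and Eif3j1 against TCP (from 0.984 to 1.231). Among those counted as lower, they were Eif3c against GelMA (from 0.978 to 1.006) and Eif5b against GelMA (from 0.970 to 1.011). What the counts cannot show is the spread between cultures.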
